A study of Mus musculus with 10 samples.

Results

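The comparison described here set 2 mouse fibroblast reprogramming libraries taken at day 5 (D5) against 2 taken at day 3 (D3), a window taken here as the onset of pluripotency. These 4 libraries were chosen by their day labels, with the replicate number used as a block, out of 10 libraries in all. The cells were primary mouse embryonic fibroblasts (MEFs) at passage 2 from E13.5 embryos. The embryos came from crosses of males carrying an Oct4-GFP transgenic allele (CBA/CaJ × C57BL/6J) with 129S4/SvJaeJ females, so every group shares that background. Cells of every group, day 0 (D0) included, were infected for 48 hours with retroviruses for 4 factors, Jdp2, Sall4, Esrrb and Glis1. They were then kept in an induction medium named iCD3 for 0 hours (D0), 24 hours (D1), 72 hours (D3), 120 hours (D5) or 168 hours (D7), with 2 libraries a day. No uninfected library was analysed here, and the labels name no sorting of GFP-positive cells, so each library holds whatever mixture of infected, uninfected and partly reprogrammed cells the dish held.

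Reprogramming by transcription factors turns a differentiated cell into an induced pluripotent stem cell through a loss of the starting identity followed by activation of the pluripotency network. Pou5f1 (Oct4), Sox2 and Nanog form the core of that network and activate one another, and factors such as Klf2, Tfcp2l1, Prdm14, Nr5a2 and Esrrb hold it in the naive state of the early embryo. None of the core genes was among the 4 delivered factors. Genes such as Dppa5a, Utf1, Zfp42 and Dnmt3l are widely used as markers of cells that have advanced far along this route.

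The libraries held between 1329377 and 4335931 expected counts, which are gene-level read counts that the RSEM program splits among genes when a read matches several. The D3 libraries held 3303693 (replicate 1) and 1365989 (replicate 2), and the D5 libraries held 3952508 and 1329377, so replicate 2 was the shallower at both days. Values are given as CPM (counts scaled to a common library total) after TMM scaling, which corrects library totals for a few very abundant genes, and always with replicate 1 before replicate 2. A count of 3 is the upper limit that a count of 0 allows, for counting error only. On library totals before TMM scaling, it corresponded to 0.908 and 2.2 CPM at D3 and to 0.759 and 2.26 CPM at D5. Changes were tested gene by gene with edgeR's quasi-likelihood test, in one fit of all 10 libraries with terms for day and for replicate number (the block). A gene was called when its Benjamini-Hochberg adjusted p, taken over all 12752 genes with enough counts to test, was under 0.05. Fitted changes are log2 differences, D5 minus D3, with their standard error (SE). The series text speaks of 2 independent experiments and nothing else ties the replicates to separate cultures, so a p-value here reflects how much these particular libraries vary, which may be technical. Mean fragment length was 136 to 159 bases in replicate 1 libraries and 199 to 204 bases in replicate 2 libraries, whether by kit was not tested, and the mitochondrial share of counts was 3.29% and 5.48% at D3 and 4.33% and 4.13% at D5.

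Between D3 and D5, 288 genes rose (2.26% of those tested) and 133 fell (1.04%), while the median change of all tested genes was 0.01 on the log2 scale. The rising genes moved further than the falling ones. Their median fitted change was 2.42 on the log2 scale, 173 of the 288 were at least 4-fold higher by the fitted change, and 24 had no count in either D3 library. The falling genes had a median of -1.38, and 11 of the 133 were at least 4-fold lower. The median change by replicate, on the log2(CPM + 1) scale, was 2.25 and 1.93 for the rising genes and -1.32 and -1.36 for the falling genes. Both D5 libraries lay above both D3 libraries in 278 of the 288 risers and below both in 129 of the 133 fallers, against 17.7% and 16.2% of all tested genes. The calls were made on these same libraries, so that separation comes in part from the selection and is no separate support for the calls. In bulk libraries, a change in the share of cells that carry a transcript and a change in its amount per cell cannot be told apart, which holds for every gene described here.

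**Figure D1:**
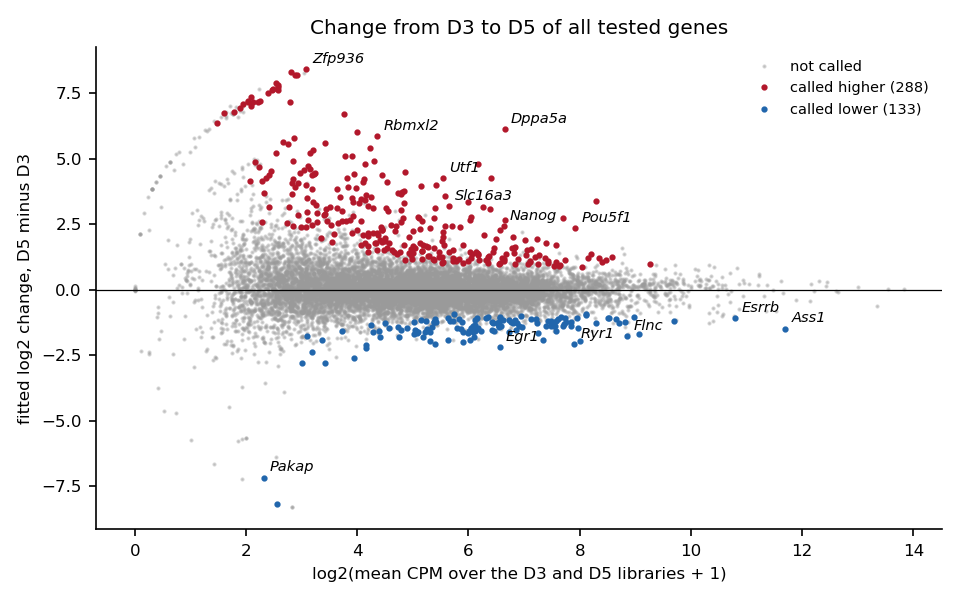
Fitted log2 change from D3 to D5 (vertical axis) against the log2 of the mean CPM + 1 over the D3 and D5 libraries (horizontal axis) for every tested gene, with the 288 genes called higher in red and the 133 called lower in blue. The red points spread further from 0 than the blue ones, with medians of 2.42 and -1.38.

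The block carried most of these calls. Without it, 8 genes were called higher (0.0627%) and 1 lower (0.00784%): the risers were Dppa5a, Utf1, Dppa4, Trap1a, Rbmxl2, Slc16a3, Alpl and Arid3b, and the faller was Ryr1. Those 9 genes were 0.0706% of those tested, against 3.3% with the block. With the block, 15 risers stayed called in each of the 4 fits that leave out 1 D3 or D5 library: Dppa5a, Utf1, Tdgf1, L1td1, Zfp42, Fbxo15, Rbmxl2, Slc16a3, Alpl, Mylpf, Dpp4, Gpa33, Vmn2r97 and the predicted genes Gm37697 and Gm38312. Among the fallers the same held for Ryr1 and Flnc. Every other call was lost when some single library was left out. Of the 288 and 133 calls, 32 and 20 remained without D3 replicate 1, 28 and 2 without D3 replicate 2, 104 and 51 without D5 replicate 1, and 285 and 125 without D5 replicate 2. No called gene changed its fitted direction in any of these fits.

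Pou5f1 and Nanog rose while Sox2 did not pass the test. Pou5f1, the POU-domain factor at the centre of the network (ENSMUSG00000024406, GRCm38 chromosome 17, 35506018 to 35510772, plus strand), was at 137 and 30.6 CPM at D3 and at 431 and 363 CPM at D5. It was 3.16 and 11.9 times as high at D5 in replicates 1 and 2, a fitted change of 2.37 (SE 0.51, adjusted p = 0.0274). The 2 D3 libraries differed more from each other than the 2 D5 libraries did, and the days did not overlap. Nanog, the homeodomain factor that stabilises the pluripotent state, went from 53.3 and 10.4 CPM to 236 and 93.6 CPM, a fitted change of 2.42 (SE 0.45, adjusted p = 0.0152). Again the groups did not overlap, and D3 replicate 1 was the higher of the D3 libraries. Sox2, the partner of Pou5f1 on DNA, was already at 154 and 81.2 CPM at D3 and was at 202 and 159 CPM at D5, a fitted change of 0.65 (SE 0.23, adjusted p = 0.144). DESeq2 with the same block called none of these 3 genes (adjusted p = 0.413 for Pou5f1 and 0.222 for Nanog), and without D3 replicate 2 edgeR's adjusted p was 0.241 for Pou5f1 and 0.156 for Nanog. Without D3 replicate 1 that of Nanog was 0.0678. Per transcript length, Pou5f1 had the highest level of the core genes at D5, at 440 ± 137 TPM (a level per transcript length; SD, n = 2), against 125 ± 44.8 for Sox2 and 113 ± 81.1 for Nanog.

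Of 16 genes listed as late markers of pluripotency, 15 rose and none fell, against 2.26% and 1.04% of all tested genes. Their summed level went from 188 and 87.2 CPM at D3 to 1500 and 810 CPM at D5, 7.97 and 9.29 times as high. Dppa5a, a small RNA-binding protein of pluripotent cells (ENSMUSG00000060461, GRCm38 chromosome 9, 78367052 to 78368177, minus strand), was at 4.39 and 0 CPM at D3 and at 264 and 129 CPM at D5. Its fitted change of 6.14 (SE 0.51, adjusted p = 0.000414) had the lowest adjusted p of the list. It had 15 counts at D3, none of them in replicate 2, and, at 586 ± 347 TPM (SD, n = 2), was the highest of the 16 at D5. Utf1, a chromatin-bound factor of embryonic stem cells, went from 5.85 and 2.24 CPM to 98.6 and 75 CPM (4.26, SE 0.49, adjusted p = 0.00129). Dppa4, which binds chromatin together with Dppa2, went from 1.46 and 0.745 CPM to 48.1 and 24 CPM (4.92, SE 0.49, adjusted p = 0.00121). Both genes were more than 10-fold higher at D5 in each replicate, and their days lay far apart. Trap1a, a tumour-rejection antigen gene on the X chromosome, had 1 count at D3 and 168 at D5, a ratio of 147 with a 95% counting interval of 26.1 to 5850. Lin28a, the RNA-binding protein that blocks let-7 maturation, went from 12.3 and 3.73 CPM to 103 and 46.4 CPM (3.14, SE 0.41, adjusted p = 0.00349).

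The smallest change in this list belonged to Mybl2, a cell-cycle transcription factor that fibroblasts also express. It was at 69.1 and 52.2 CPM at D3 and at 280 and 193 CPM at D5 (1.96, SE 0.28, adjusted p = 0.00464). The 1 member that edgeR did not call was Eras, a Ras family gene of embryonic stem cells. It had no count at D3 and was at 4.35 and 6.96 CPM at D5, at least 7.88-fold higher against a floor of 3 counts pooled over the D3 libraries (adjusted p = 0.0535). The median fitted change of the list was 3.91, or 3.46 with Eras at that bound, against 0.01 for all tested genes. All 16 were higher in both D5 libraries than in both D3 libraries, against 17.7% of all tested genes. DESeq2 also called 15 of the 16 and limma-voom all 16, while without the block 4 of them were called (Dppa5a, Utf1, Dppa4 and Trap1a). Leaving out a D3 library took Dppa4 and Lin28a to adjusted p = 0.051 and 0.0504 (without replicate 1) and Lin28a to 0.0549 (without replicate 2), and Trap1a to 0.0762 (without replicate 1).

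Naive-state regulators rose in part. Of 14, 8 rose and none fell, against 2.26% and 1.04% of all tested genes. Their median change was 2.34, and all 14 had a fitted change above 0. Klf2, a Krüppel-like factor of the ground state, went from 22.2 and 13.4 CPM to 108 and 83.5 CPM (2.38, SE 0.32, adjusted p = 0.00349). Zfp42 (Rex1), a zinc-finger gene that is switched off when cells leave the naive state, went from 4.68 and 3.73 CPM to 93.2 and 35.6 CPM (3.97, SE 0.39, adjusted p = 0.000697). Fbxo15, a target of Pou5f1 and Sox2, went from 4.39 and 0 CPM to 58.7 and 25.5 CPM (4.1, SE 0.49, adjusted p = 0.00129). The days did not overlap for any of these 3 genes. Nr5a2, a nuclear receptor, rose from 2.93 and 0 CPM to 39.4 and 10.8 CPM, and Tfcp2l1 from 41 and 18.6 CPM to 248 and 66.5 CPM. Prdm14, a repressor of differentiation genes, had 2 counts at D3 and 65 at D5, a ratio of 28.5 with a 95% counting interval of 7.57 to 240. Tcl1, an activator of Akt, had no count at D3 and was at least 16.9-fold higher at D5 against the pooled floor. The other 6 listed genes did not pass in edgeR. Klf4 was at 33.9 and 33.5 CPM and then at 70.8 and 68 CPM (1.04, SE 0.35, adjusted p = 0.125). Tbx3 stood at 63.8 and 57.4 CPM at D3 and 75.8 and 65.7 CPM at D5, and Klf5 at 45.9 and 82.7 CPM and then 124 and 39.4 CPM, its days overlapping. DESeq2 called 5 of the 14 and limma-voom 10; for Tcl1 and Prdm14 its adjusted p was 0.583 and 0.069. Zfp42 and Fbxo15 kept their calls without each library in turn, whereas that of Klf2 reached 0.055 without D3 replicate 2.

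**Figure D2:**
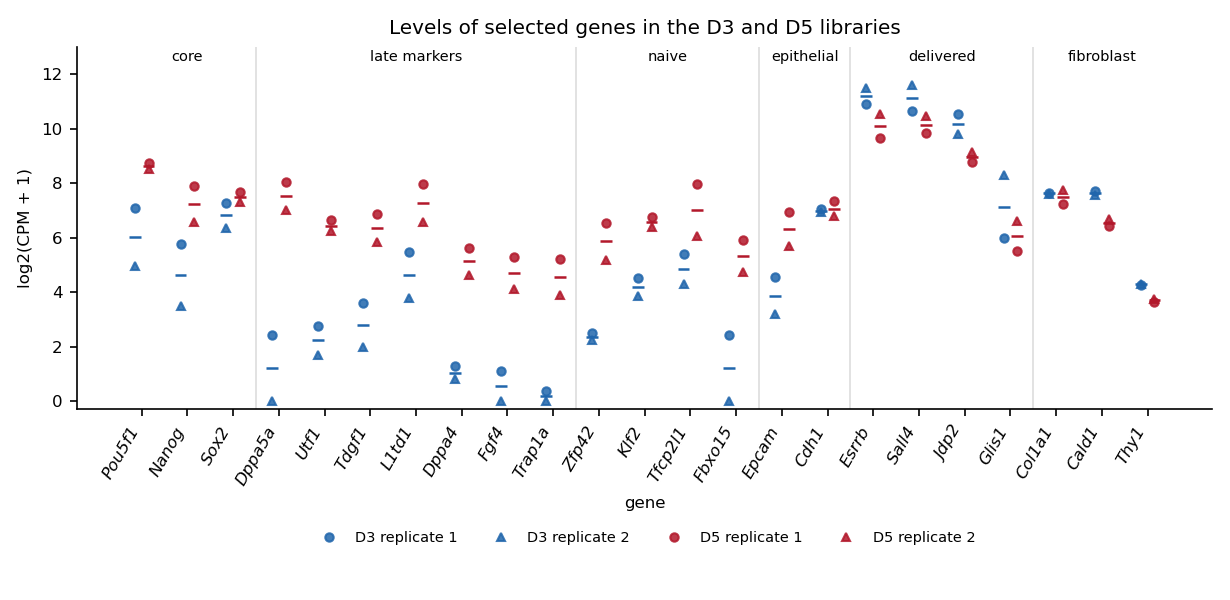
Level of 23 genes in each D3 (blue) and D5 (red) library, as log2(CPM + 1), grouped by role; circles are replicate 1, triangles replicate 2, and each short line is the mean of the 2 log2 values. Late markers such as Dppa5a sit much lower at D3 than at D5. The delivered factors sit lower at D5, and Sox2 and Cdh1 lie close together at both days.

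Promoter sequence was searched because the POU-family octamer, the element that Pou5f1 contacts, could be looked for directly. RefSeq windows of GRCm38.p6, from 250 bases before to 50 bases after a gene's start, were matched by symbol for 188 of the 288 risers and 94 of the 133 fallers. The octamer ATGCAAAT, on either strand, stood in 11 of the 188 riser windows (5.85%) and in 3.19% of the 94 faller windows, against 1.61% of 9634 tested genes with a window and 1.97% of all 27025 genes with one. The element TCAAGGTCA, which Esrrb recognises, stood in none of the windows of called genes and in 0.291% of those of tested genes. By list, the octamer stood in 0 of 11 late-marker windows and in 1 of 9 naive-list windows, counting members that did not rise. The windows of 2 risers with an octamer are shown, those of a naive gene and a posterior gene, with the octamer in capitals. The Zfp42 window is chr8:43306960-43307259 on the minus strand, with the reverse complement of the octamer starting at position -186 from the gene's start. The Cdx2 window is chr5:147307200-147307499 on the minus strand, with the octamer at position -147.
Zfp42: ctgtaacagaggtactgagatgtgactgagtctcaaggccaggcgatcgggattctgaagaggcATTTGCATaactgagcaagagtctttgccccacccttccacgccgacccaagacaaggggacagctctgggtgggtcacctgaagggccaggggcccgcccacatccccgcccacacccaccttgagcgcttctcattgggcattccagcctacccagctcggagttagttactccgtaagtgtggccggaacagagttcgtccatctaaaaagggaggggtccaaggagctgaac
Cdx2: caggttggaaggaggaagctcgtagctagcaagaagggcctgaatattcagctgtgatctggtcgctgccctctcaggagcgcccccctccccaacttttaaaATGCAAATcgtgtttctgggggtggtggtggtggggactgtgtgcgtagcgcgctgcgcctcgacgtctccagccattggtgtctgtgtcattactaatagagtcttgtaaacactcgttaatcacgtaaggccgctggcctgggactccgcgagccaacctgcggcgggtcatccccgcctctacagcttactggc
These matches describe the letters of the windows and were not tested for binding.

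Of the 4 delivered factors, 1 fell and the other 3 were lower at D5 without passing the test. Esrrb, a nuclear receptor of the naive network, was at 1910 and 2890 CPM at D3 and at 805 and 1480 CPM at D5 (-1.09, SE 0.26, adjusted p = 0.0404). Both D5 libraries lay below both D3 libraries. Sall4, a zinc-finger factor, was at 1610 and 3100 CPM and then at 924 and 1400 CPM (-1.0, SE 0.27, adjusted p = 0.0598). Jdp2, a repressor of AP-1 activity, was at 1500 and 892 CPM and then at 436 and 564 CPM (-1.14, SE 0.32, adjusted p = 0.0707). Glis1, a Gli-similar zinc-finger factor, was at 62 and 312 CPM and then at 44.2 and 98.2 CPM (-1.15, SE 0.32, adjusted p = 0.072). All 4 were lower at D5 within each replicate, by similar fitted amounts, and the days overlapped for Glis1 alone. Their summed level was 0.434 and 0.492 times that of D3. DESeq2 called all 4 lower and limma-voom 3. The call of Esrrb was lost without D3 replicate 1 (adjusted p = 0.0815), D3 replicate 2 (0.248) or D5 replicate 1 (0.102). Reads from the retroviral copies and from the endogenous genes cannot be told apart in these gene-level counts.

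Genes of the Nodal pathway, which signals through activin receptors and Smad2 in the early embryo, rose in 4 of 10 tested members. Of all tested genes, 2.26% rose. The co-receptor Tdgf1 (Cripto) went from 11.1 and 2.98 CPM to 117 and 56.4 CPM (3.58, SE 0.34, adjusted p = 0.000929), and the ligand Gdf3 from 3.51 and 1.49 CPM to 27.3 and 29.4 CPM (3.33, SE 0.53, adjusted p = 0.00912). The inhibitor Lefty2 went from 6.44 and 0 CPM to 75.1 and 25.5 CPM, and Foxh1, the DNA-binding partner of Smad2, from 2.34 and 1.49 CPM to 17.6 and 13.1 CPM. The risers held a co-receptor, a ligand, an antagonist and a transcriptional partner, and no tested member fell. Nodal itself was at 14.9 and 10.4 CPM and then at 17.9 and 17.8 CPM (0.48, SE 0.4, adjusted p = 0.579). Lefty1 was at 4.1 and 1.49 CPM and then at 27.8 and 23.2 CPM (2.99, SE 0.81, adjusted p = 0.0623). The highest adjusted p without 1 library was 0.0997 for Gdf3, 0.0549 for Lefty2 and 0.161 for Foxh1, while the call of Tdgf1 stayed.

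Of 17 tested genes of FGF signalling, 2 rose and 1 fell, where 2.26% and 1.04% of all tested genes did. The median change of the list was -0.16. The rising members were both ligands. Fgf4, the autocrine FGF of pluripotent cells, went from 1.17 and 0 CPM to 38.6 and 16.2 CPM (5.12, SE 0.65, adjusted p = 0.00408), and Fgf8, a ligand of the primitive streak, had no count at D3 and was at least 12.3-fold higher at D5. The falling member was the immediate early gene Egr1, at 96 and 203 CPM and then at 15.5 and 60.3 CPM (-2.17, SE 0.39, adjusted p = 0.0135). The feedback inhibitors Spry2, at 128 and 102 CPM and then 72.5 and 86.6 CPM, and Dusp6, at 77.3 and 66.3 CPM and then 109 and 93.6 CPM, did not pass (adjusted p = 0.22 and 0.234). Without D3 replicate 1 the adjusted p was 0.0675 for Fgf4, 0.196 for Fgf8 and 0.0823 for Egr1, and without D3 replicate 2 it was 0.0518, 0.185 and 0.0997.

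In the LIF pathway, which acts through Stat3, Socs3 fell and Pim1 rose among 12 tested genes, whose median change was -0.04. Of all tested genes 1.04% fell and 2.26% rose, so 1 call each way says nothing particular about the list. Socs3, the feedback inhibitor of the receptor, went from 206 and 333 CPM to 78.7 and 127 CPM (-1.39, SE 0.22, adjusted p = 0.00668), and the days did not overlap. Pim1, a serine/threonine kinase gene, went from 10.2 and 23.1 CPM to 47.6 and 43.3 CPM (1.67, SE 0.37, adjusted p = 0.0306). Stat3 was at 226 and 352 CPM and then at 149 and 169 CPM (-0.83, SE 0.22, adjusted p = 0.0595). Without D3 replicate 2 the adjusted p was 0.0777 for Socs3 and 0.16 for Pim1. Wnt feedback genes held 2 risers among 16 tested, where 2.26% of all tested genes rose, and their median change was 0.18. The 2 were the transcription factors Lef1 (6.73 and 11.2 CPM, then 28.3 and 30.9 CPM) and Cdx1 (12.6 and 2.98 CPM, then 55.6 and 60.3 CPM). The most used feedback reporter, Axin2, was at 54.7 and 108 CPM and then at 94.4 and 99.7 CPM, with its days overlapping. In the TGF-beta list 1 of 16 fell, where 1.04% of all tested genes did, so the count says nothing particular about the list. It was Ltbp1, a matrix protein that binds the latent ligand, from 45.6 and 72.3 CPM to 19.6 and 30.2 CPM (-1.24, SE 0.24, adjusted p = 0.0171). edgeR called none of the 14 tested BMP pathway and Id genes, with 1 higher and 1 lower at an unadjusted p under 0.05 and none called by DESeq2 or limma-voom. Leaving out D3 replicate 2 gave an adjusted p of 0.105 for Lef1, 0.0566 for Cdx1 and 0.108 for Ltbp1.

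Posterior and primitive-streak genes rose in 5 of 11 tested members, against 2.26% of all tested genes. T (brachyury), which marks the streak, went from 12 and 2.24 CPM to 40.8 and 28.6 CPM (2.27, SE 0.44, adjusted p = 0.0242). Cdx2, a caudal homeobox gene that trophoblast also expresses, went from 0.878 and 0.745 CPM to 15 and 13.1 CPM (3.99, SE 0.81, adjusted p = 0.0246). Wnt8a went from 8.19 and 2.24 CPM to 30.9 and 18.6 CPM, and Cdx1 and Fgf8 are given with their pathways. The days did not overlap for any of the 5. Other streak genes did not pass. Mixl1 stood at 17.9 and 22.4 CPM and then at 9.9 and 17.8 CPM, Eomes at 18.7 ± 7.34 CPM and then at 12.7 ± 4.99 CPM (SD, n = 2), and Gsc at 6.44 and 0.745 CPM and then at 0.483 and 3.87 CPM. Of 11 tested genes of the formative and primed states, which follow the naive state in the embryo, Sox3, Lef1 and Dnmt3b rose. Sox3, a close relative of Sox2, had 1 count at D3 and 34 at D5, a ratio of 29.8 with a 95% counting interval of 5 to 1210. Otx2 and Fgf5, the usual markers of that state, had too few counts to be tested, with Fgf5 at 1.46 and 0 CPM and then at 0.242 and 0 CPM. Without D3 replicate 2 the adjusted p was 0.168 for Cdx2, 0.211 for Wnt8a and 0.218 for Sox3, and DESeq2 did not call Wnt8a (0.0585) or Sox3 (0.0755).

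Markers of other cell types were checked beside these gains. For extraembryonic endoderm, Gata4 (1.76 and 1.49 CPM, then 15 and 8.51 CPM), Lama1 (35.4 and 35 CPM, then 214 and 74.2 CPM) and Sox17 (2 counts, then 49, a ratio of 21.5 with a 95% counting interval of 5.63 to 182) rose among 12 tested. Its secreted products Afp and Apoa1 stayed at or under 1.49 CPM in all 4 libraries, and the summed level of the 15 listed genes was 513 and 796 CPM at D3 and 1100 and 672 CPM at D5, higher in replicate 1 and lower in replicate 2. For trophoblast, Cdx2 and Tfap2c rose among 8 tested, where 2.26% of all tested genes rose, and the median change of the 8 was 0.53. The summed level of the trophoblast list went from 49.7 and 56.6 CPM to 90.3 and 99.7 CPM. Of its other genes, Tpbpa and Prl3d1 had no count in these 4 libraries, and Elf5 reached 0.725 CPM in 1 of them. Tubb3, a neuronal tubulin, rose from 1.46 and 2.98 CPM to 16.9 and 17.8 CPM, while the neural factors Pax6 and Neurog2 were at 0 in both D5 libraries. Pecam1, an adhesion molecule of endothelium that embryonic stem cells also express, rose from 1.46 and 2.98 CPM to 34.1 and 9.28 CPM. Mylpf, a fast-muscle myosin light chain, rose from 8.78 and 0 CPM to 172 and 102 CPM (4.81, SE 0.5, adjusted p = 0.000697), the 1 riser among 4 tested skeletal-muscle markers. The other 3 had fitted changes below 0 and were not called, the median of the 4 was -0.83, and Myod1 and Myog were at 0 in all 4 libraries. No tested macrophage, erythroid or keratinocyte marker was called, out of 2, 1 and 2 tested, by edgeR, DESeq2 or limma-voom, and none had an unadjusted p under 0.05. The part of such cells in the gains of shared genes such as Cdx2 was not tested. Except for Mylpf, each of these calls was lost without at least 1 library, as in Gata4 (adjusted p = 0.17), Lama1 (0.226), Tfap2c (0.115), Tubb3 (0.199) and Pecam1 (0.194) without D3 replicate 1.

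Germline genes that promoter methylation keeps silent in somatic cells rose in 5 of 10 tested members, against 2.26% of all tested genes. Their summed level went from 14 and 8.94 CPM to 169 and 61.9 CPM, 12.1 and 6.92 times as high. Rbmxl2, a testis-expressed RNA-binding protein gene (ENSMUSG00000073894, GRCm38 chromosome 7, 107209445 to 107210916, plus strand), was at 0.585 and 0.745 CPM at D3 and at 45.7 and 30.9 CPM at D5. It had 3 counts at D3 and 229 at D5, a ratio of 66.9 with a 95% counting interval of 22.6 to 327 (adjusted p = 0.00063). It was the 1 germline gene called without the block and without each library. Morc1, which represses transposons in male germ cells, went from 2.93 and 0 CPM to 51.9 and 10.1 CPM (4.12, SE 0.59, adjusted p = 0.00567). Piwil2 and Rpl10l had no count at D3 and were at least 12.6-fold and 13.1-fold higher at D5; Rpl10l is a close copy of Rpl10, so its value depends on how reads were split. Dazl, an RNA-binding protein of germ cells, had no count in either D3 library and was at 8.21 and 0 CPM at D5, so its call rests on D5 replicate 1. Neither DESeq2 (adjusted p = 0.726) nor limma-voom (0.112) called Dazl, and DESeq2 did not call Rpl10l (0.629). Of the 22 listed genes, 12 had too few counts to test. Asz1 and Tex101 were at 0 in all 4 libraries, and Ddx4 stood at 0.878 and 0.745 CPM and then at 2.9 and 1.55 CPM. For cleavage-stage genes such as the Zscan4 group, edgeR, DESeq2 and limma-voom called none of 6 tested 2-cell genes. None had an unadjusted p under 0.05, and their list summed to 2.93 and 0.745 CPM at D3 and to 1.45 and 3.09 CPM at D5.

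Among 11 genes of DNA methylation and demethylation, 4 rose and none fell, against 2.26% and 1.04% of all tested genes. Dnmt3l, the germline and embryonic cofactor of the de novo methyltransferases, went from 1.17 and 0 CPM to 22.2 and 10.1 CPM (4.42, SE 0.6, adjusted p = 0.00567). Dnmt3b, a de novo methyltransferase, went from 53.6 and 37.3 CPM to 158 and 93.6 CPM (1.46, SE 0.31, adjusted p = 0.0269). Tet1, which oxidises 5-methylcytosine, went from 19.6 and 11.9 CPM to 197 and 27.8 CPM (2.66, SE 0.52, adjusted p = 0.0185). The days did not overlap for these 3 genes, but the gain of Tet1 was far larger in replicate 1 than in replicate 2. Uhrf1, which guides maintenance methylation, rose from 129 and 87.2 CPM to 235 and 235 CPM. Dnmt3a was at 158 and 191 CPM and then at 156 and 132 CPM, and Tet2 at 14.9 and 19.4 CPM and then at 98.6 and 17 CPM, neither called. Leaving out a D3 library ended these calls, with adjusted p = 0.196 for Tet1, 0.18 for Dnmt3b and 0.0762 for Dnmt3l without replicate 1 and 0.318 for Uhrf1 without replicate 2.

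The windows of Rbmxl2 and Dnmt3l are printed because each holds the E-box CACGTG, a palindromic element bound by basic helix-loop-helix proteins, shown in capitals. That element stood in 13 of 19 germline-list windows (68.4%), counting members that did not rise, against 12.1% of windows of tested genes, 8.09% of all windows and 10.1% of riser windows. The Rbmxl2 window is chr7:107209195-107209494 on the plus strand, with the element at position -221 from the start and 29 CG dinucleotides. The Dnmt3l window is chr10:78049592-78049891 on the plus strand, 1 of 3 for that gene, with the element at position -44 and 4 CG dinucleotides.
Rbmxl2: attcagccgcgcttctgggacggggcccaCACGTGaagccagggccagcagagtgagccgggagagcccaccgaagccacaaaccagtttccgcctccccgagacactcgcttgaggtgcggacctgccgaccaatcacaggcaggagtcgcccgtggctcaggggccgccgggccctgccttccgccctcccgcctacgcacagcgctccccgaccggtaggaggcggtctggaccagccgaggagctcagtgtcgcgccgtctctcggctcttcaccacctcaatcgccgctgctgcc
Dnmt3l: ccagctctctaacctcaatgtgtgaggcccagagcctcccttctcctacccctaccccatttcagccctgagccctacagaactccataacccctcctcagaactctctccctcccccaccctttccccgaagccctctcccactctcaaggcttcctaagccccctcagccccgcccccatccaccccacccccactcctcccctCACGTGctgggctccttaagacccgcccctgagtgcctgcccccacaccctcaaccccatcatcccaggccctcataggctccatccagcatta
The median number of CG dinucleotides was 17 in riser windows, 22 in faller windows and 21 in windows of tested genes.

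Polycomb subunits, which place and read repressive histone marks, rose in 4 of 19. Cbx7, the chromodomain subunit of embryonic stem cells, went from 7.32 and 8.94 CPM to 58 and 25.5 CPM (2.42, SE 0.41, adjusted p = 0.01). Ezh2, the H3K27 methyltransferase, went from 64.1 and 35 CPM to 126 and 94.3 CPM (1.15, SE 0.25, adjusted p = 0.0274). Mtf2 and Pcgf6, accessory subunits of PRC2 and PRC1, also rose, by 1.19 and 1.41 on the log2 scale. Cbx8, which can take the place of Cbx7, stood at 3.51 and 4.47 CPM and then 2.17 and 2.32 CPM and was not called. In the NuRD complex 1 of 13 rose, against 2.26% of all tested genes, which is likewise no result about the complex. It was Hdac1, from 141 and 116 CPM to 269 and 213 CPM (0.9, SE 0.21, adjusted p = 0.0399). Each of these 5 calls was lost in at least 1 of the fits without 1 library. Over those fits the fitted change ran from 1.79 to 2.81 for Cbx7, 0.91 to 1.49 for Ezh2 and 0.64 to 1.55 for Mtf2. For Pcgf6 it ran from 1.07 to 1.63 and for Hdac1 from 0.8 to 0.99.

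Epithelial genes rose in part, and Cdh1 was not among those that did. Epcam, an adhesion molecule of epithelia and pluripotent cells, went from 22.5 and 8.2 CPM to 122 and 50.3 CPM (2.43, SE 0.41, adjusted p = 0.0103). St14 (matriptase) went from 4.1 and 4.47 CPM to 23.4 and 30.9 CPM, and its inhibitor Spint1 from 8.19 and 5.22 CPM to 34.1 and 35.6 CPM. Together with the tight-junction genes Cldn6 and Tjp3 they made 5 risers among 22 tested junction genes, and none fell. Of all tested genes, 2.26% rose. Cdh1 (E-cadherin) was at 131 and 121 CPM at D3 and at 160 and 110 CPM at D5 (0.08, SE 0.22, adjusted p = 0.886), up from a mean of 15.4 CPM at D0, and its fitted sign turned when the counts were thinned to the smallest library (-0.02) and without D3 replicate 1 (-0.12) or D5 replicate 1 (-0.02). Among 10 tested epithelial regulators, Esrp1, a splicing factor (1 count, then 76, a ratio of 66.6 with a 95% counting interval of 11.6 to 2660), and Elf3 (3.8 and 0.745 CPM, then 49 and 13.9 CPM) rose. Esrp2, the paralog of Esrp1, was at 51.8 and 128 CPM and then at 20.8 and 41.8 CPM (-1.52, SE 0.44, adjusted p = 0.0782). The keratin gene Krt8 stood at 16.1 and 23.8 CPM and then at 19.6 and 30.9 CPM. The calls of Epcam, St14, Cldn6, Tjp3, Esrp1 and Elf3 were each lost in at least 1 of the fits without 1 library. Over those fits the fitted change ran from 1.94 to 3.0 for Epcam and 2.4 to 2.98 for St14. For Cldn6 it ran from 2.11 to 2.8 and for Elf3 from 2.7 to 4.71.

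Markers of the labelled cell type, the fibroblast, were high at D0 and lower by D3. The 16 listed markers summed to 7470 and 8660 CPM at D0 and to 860 and 997 CPM at D3 and 675 and 807 CPM at D5. Thy1, the surface marker of MEFs, averaged 177 CPM at D0 and was at 18.4 and 18.6 CPM at D3 and 11.6 and 12.4 CPM at D5 (-0.64, SE 0.3, adjusted p = 0.263). Col1a1, the main fibrillar collagen chain, averaged 4730 CPM at D0 and was at 200 and 194 CPM at D3 and 149 and 216 CPM at D5, its days overlapping. edgeR called none of the 13 tested markers, with 1 higher and 2 lower at an unadjusted p under 0.05 and none called by DESeq2 or limma-voom. Nor did edgeR call any of 14 mesenchymal regulators, where 3 were lower at an unadjusted p under 0.05 and DESeq2 and limma-voom each called 1 lower. Snai2 stood at 11.7 and 15.6 CPM and then at 11.4 and 10.8 CPM, and Foxc2 at 46.5 and 60.4 CPM and then at 13 and 33.2 CPM (-1.33, SE 0.35, adjusted p = 0.0548).

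A few genes of matrix and contraction fell. Of 32 matrix genes, Col5a1, Tnc and Thbs1 fell, and 26 had a fitted change below 0, with a median of -0.51. Col5a1, a regulatory fibrillar collagen, went from 90.4 and 180 CPM to 40.3 and 58.8 CPM (-1.39, SE 0.29, adjusted p = 0.0233). Tnc (tenascin C) went from 56.5 and 110 CPM to 32.6 and 32.5 CPM, and Thbs1 (thrombospondin) from 92.8 and 182 CPM to 52.9 and 61.9 CPM. Within each replicate the D5 library was the lower for all 3 genes. In the contractile list 1 of 20 fell, against 1.04% of all tested genes, a single call. It was Cald1, an actin-binding regulator, from 210 and 191 CPM to 84.5 and 103 CPM (-1.11, SE 0.23, adjusted p = 0.0246). Acta2, the smooth-muscle actin, was already at 36.9 and 34.3 CPM at D3 from a mean of 4760 CPM at D0, and stood at 15.7 and 61.1 CPM at D5. Leaving out D3 replicate 2 gave an adjusted p of 0.179 for Col5a1, 0.188 for Tnc, 0.243 for Thbs1 and 0.105 for Cald1.

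**Figure D3:**
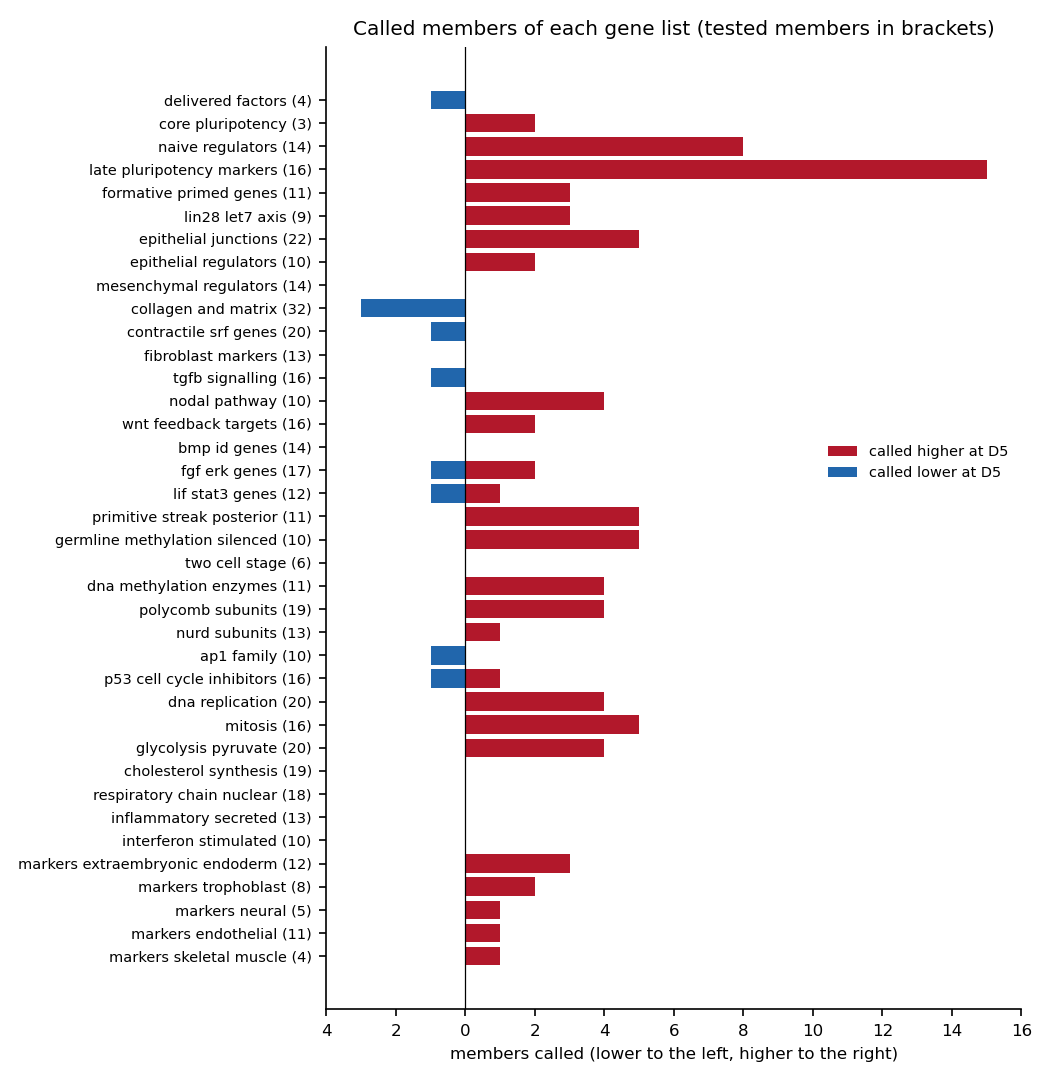
Number of members called lower (bars to the left) and higher (bars to the right) from D3 to D5 in each gene list with at least 3 tested members. The late pluripotency markers have the longest bar, with 15 of 16 called higher, while the matrix genes have 3 called lower and the fibroblast markers none.

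AP-1 factors answer mitogens and occupy enhancers of somatic cells. Of 10 tested AP-1 genes, 1 fell (1.04% of all tested genes did) and all 10 had a fitted change below 0 (median -0.64). Fos went from 41.6 and 90.2 CPM to 9.18 and 23.2 CPM (-2.07, SE 0.42, adjusted p = 0.0225). Junb was at 133 and 291 CPM and then at 40.3 and 219 CPM, and Jun at 74.3 and 115 CPM and then at 37 and 103 CPM, neither called. Their summed level was 0.41 times that of D3 in replicate 1 and 0.861 times in replicate 2, so the 2 replicates differed in the size of the difference. The call of Fos was lost without D3 replicate 1 (adjusted p = 0.0824), D3 replicate 2 (0.167) or D5 replicate 1 (0.0692).

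Part of the cell-cycle genes rose. Of 20 replication genes 4 rose and 19 had a fitted change above 0, with a median of 0.89. Of 16 mitosis genes 5 rose and all 16 were above 0, with a median of 1. Of all tested genes, 2.26% rose. Mcm6, a subunit of the replicative helicase, went from 121 and 79 CPM to 262 and 202 CPM (1.21, SE 0.24, adjusted p = 0.0226), and Pcna, the sliding clamp, from 149 and 127 CPM to 274 and 240 CPM. Ccnb1 (cyclin B1) went from 89.5 and 56.6 CPM to 255 and 121 CPM (1.33, SE 0.27, adjusted p = 0.0217), and Aurkb, a kinase of chromosome segregation, from 24 and 14.9 CPM to 63.8 and 58.8 CPM (1.6, SE 0.29, adjusted p = 0.0144). The replication list summed to 1860 and 1450 CPM and then to 3230 and 2600 CPM, and the mitosis list to 1550 and 996 CPM and then 3260 and 1760 CPM. Mki67, a proliferation marker, stood at 198 and 162 CPM and then at 414 and 156 CPM and was not called. Cdkn1a (p21), the cell-cycle inhibitor downstream of p53, fell from 939 and 1320 CPM to 309 and 746 CPM (-1.17, SE 0.29, adjusted p = 0.0484). Trp53 itself rose from 134 and 129 CPM to 288 and 293 CPM (1.14, SE 0.26, adjusted p = 0.0325), and edgeR called none of the other 14 listed p53 genes. Of all 16, DESeq2 called 1 higher and 2 lower, and limma-voom 1 higher and 3 lower. Without D3 replicate 2 the adjusted p was 0.187 for Mcm6, 0.188 for Pcna, 0.166 for Ccnb1, 0.123 for Aurkb, 0.21 for Cdkn1a and 0.233 for Trp53.

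In metabolism, 4 of 20 genes of glycolysis and pyruvate handling rose, against 2.26% of all tested genes. Slc16a3 (MCT4), which exports lactate (ENSMUSG00000025161, GRCm38 chromosome 11, 120948480 to 120960868, plus strand), was at 12.3 and 5.96 CPM at D3 and at 99.8 and 78.1 CPM at D5 (3.19, SE 0.33, adjusted p = 0.000697). It was 8.12 and 13.1 times as high at D5. The glucose transporter Slc2a3 went from 263 and 173 CPM to 655 and 335 CPM (1.15, SE 0.27, adjusted p = 0.0361), and the phosphofructokinase genes Pfkl and Pfkp rose by 1.55 and 1.51. Gapdh stood at 3400 and 5490 CPM and then at 4010 and 7280 CPM and was not called. Outside the list, the enolase gene Eno2 and the pyruvate dehydrogenase kinase gene Pdk4 were called lower. For the respiratory chain, edgeR, DESeq2 and limma-voom called none of 18 nuclear genes, 2 were lower at an unadjusted p under 0.05, and their median was -0.29. Their summed level was 0.658 times that of D3 in replicate 1 and 0.999 times in replicate 2. edgeR called none of 19 cholesterol-synthesis genes (3 higher at an unadjusted p under 0.05, and 1 higher each by DESeq2 and limma-voom). The call of Slc16a3 stayed without each library, while those of Slc2a3, Pfkl and Pfkp were each lost in at least 1 of those fits. Over them the fitted change ran from 0.83 to 1.42 for Slc2a3, 1.13 to 2.08 for Pfkl and 0.99 to 2.05 for Pfkp.

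In the immune and secretory lists, edgeR called none of 13 tested inflammatory secreted genes, with 1 higher and 2 lower at an unadjusted p under 0.05 and 2 called lower by both DESeq2 and limma-voom. Igfbp5, an IGF-binding protein, was at 1580 and 2030 CPM and then at 1190 and 852 CPM (-0.83, SE 0.24, adjusted p = 0.0814; 0.0158 by DESeq2 and 0.0428 by limma-voom). Nor did it call any of 10 tested interferon-stimulated genes, with 1 higher and 2 lower at an unadjusted p under 0.05, 1 higher by limma-voom and none by DESeq2. Bst2, an antiviral membrane protein, stood at 56.2 and 37.3 CPM and then at 43.2 and 85.8 CPM. The interferon-inducible genes Ifitm1, Ifitm3 and Ifi30 stood outside that list and were called higher by edgeR.

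Outside the lists, several risers had no count at D3, so their changes are given as bounds and not ranked. Zfp936, a zinc-finger gene, was at 22.2 and 7.73 CPM at D5 and at least 29.8-fold higher than the pooled D3 floor. Dll3 and Dll1, ligands of the Notch pathway, were at 10.4 and 9.28 CPM and at 7.49 and 5.41 CPM at D5, at least 16.1-fold and 11.1-fold higher. Tex19.1, a germ-cell and placental gene, and Pnma5 were at least 17.5-fold and 15.8-fold higher, and Zfp640 and AI662270 at least 13.7-fold and 13.1-fold. Zinc-finger genes of this kind have close copies, so their values depend on how reads were split. Of these 7 genes DESeq2 called Dll1, Dll3 and AI662270 and did not call Zfp936 (adjusted p = 0.533), Tex19.1 (0.6), Pnma5 (0.597) or Zfp640 (0.655). Without D3 replicate 1 all 7 were above 0.05 in edgeR, from 0.127 for Zfp936 to 0.332 for Zfp640. Gpa33, a surface antigen, had counts at D3 and rose from 1.76 and 0 CPM to 37.7 and 27.1 CPM (4.82, SE 0.59, adjusted p = 0.00349). Alpl, the alkaline phosphatase used to stain pluripotent colonies, rose from 19 and 10.4 CPM to 152 and 120 CPM (3.16, SE 0.32, adjusted p = 0.000697) and kept its call without each library in turn. On the X chromosome lay 18 of the 288 risers (6.25%), against 3.51% of all tested genes.

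Among the fallers, many had come up at the start of the induction. Ryr1, a calcium-release channel (ENSMUSG00000030592, GRCm38 chromosome 7, 29003344 to 29125179, minus strand), was at 3.42 and 2.99 CPM at D0, at 199 and 135 CPM at D1, at 334 and 432 CPM at D3 and at 91.8 and 92.8 CPM at D5. Its change from D3 to D5 was -2.06 (SE 0.25, adjusted p = 0.00167), and the D5 libraries stood at 0.275 and 0.215 times D3. It was the 1 faller called without the block. Ass1, an enzyme of arginine synthesis, was at 449 and 469 CPM at D0, at 3910 and 3510 CPM at D1, at 3940 and 5750 CPM at D3 and at 1070 and 2530 CPM at D5 (-1.48, SE 0.3, adjusted p = 0.0233). Flnc, a muscle filamin, was at 1480 and 2290 CPM at D0 and 1100 and 1560 CPM at D1, and went from 466 and 971 CPM at D3 to 152 and 259 CPM at D5 (-1.76, SE 0.24, adjusted p = 0.00349). Grip2, Fstl4, Extl1 and Nwd1 were likewise higher at D1 and D3 than at D0 or D5: Grip2, for one, was at 0.489 and 0.748 CPM at D0, 11.9 and 10.7 CPM at D1, 12.6 and 11.9 CPM at D3 and 1.45 and 2.32 CPM at D5.

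The early step, D1 against D0, was set beside the late one. Its libraries are not contrasted in the comparison of D5 with D3, but they enter its fit through the replicate block and the spread. Of the 133 fallers, 54 (40.6%) had been called higher at D1 than at D0, against 5.27% of all tested genes, and those 54 were 8.04% of the 672 genes called higher at that step. A further 14 (10.5%) had been called lower at D1, and 65 were not called. Of the 288 risers, 9 (3.12%) had been called higher at D1 and 20 (6.94%) lower, against 5.27% and 5.32% of all tested genes, and 259 were not called. All 10 libraries stand in one fit, so the 2 steps share its block and its estimate of the spread, and the 2 sets of calls are not independent. With the 4 libraries of D3 and D5 alone, 128 of the 288 risers and 13 of the 133 fallers stayed called. Other fallers had been high at D0, such as Wnt2b, at 50.4 and 69.6 CPM at D0, 11.7 and 16.4 CPM at D3 and 2.9 and 1.55 CPM at D5. Pakap had no count at D5 and was at least 13.7-fold lower than D3; it overlaps other genes in the annotation, and mt-Nd4l, which fell by 1.96 on the log2 scale, overlaps mt-Nd4, so both values depend on how reads were split between neighbours. Leaving out D3 replicate 2 gave an adjusted p of 0.154 for Grip2, 0.105 for Fstl4, 0.104 for Extl1, 0.259 for Nwd1, 0.12 for Wnt2b, 0.0873 for Pakap and 0.118 for mt-Nd4l.

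**Figure D4:**
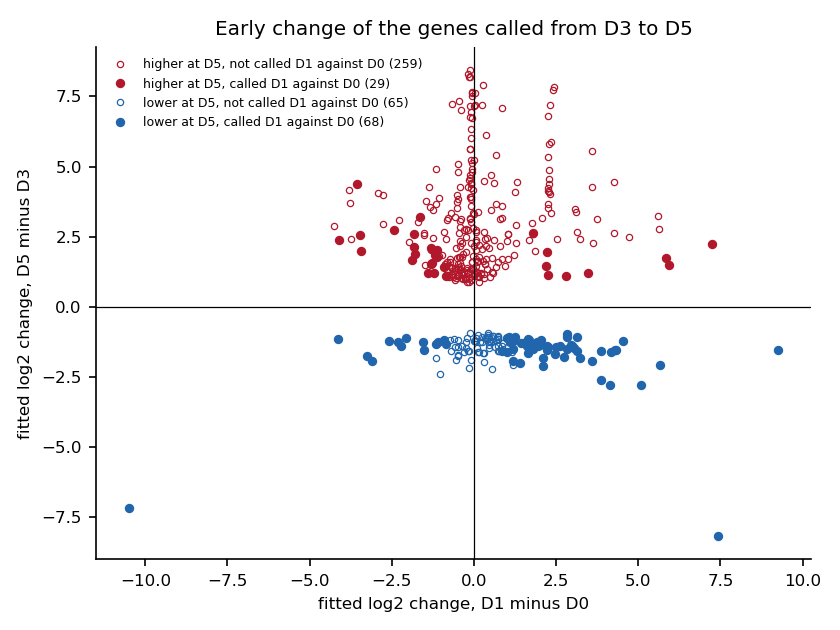
Fitted log2 change from D0 to D1 (horizontal axis) against that from D3 to D5 (vertical axis) for the 421 called genes, with filled points for genes also called between D0 and D1. Of the 133 fallers 54 were filled on the right side, called higher at D1, whereas most of the 288 risers (259) were open points.

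The step from D3 to D5 was also set against the steps on either side of it, within the same fit. The signed log2 change of the neighbouring step was subtracted from that of D3 to D5, so a negative difference can also belong to a gene that reversed. Against the step from D5 to D7 the difference was above 0 in 7 genes (0.0549% of those tested) and below 0 in 0. For that 0, 336 genes had an unadjusted p under 0.05, DESeq2 called 6 and limma-voom none. Dppa5a was 1 of the 7: it averaged 334 CPM at D7, its D5-to-D7 change was 0.85 (adjusted p = 0.383), and the difference between the steps was 5.29 (SE 0.69, adjusted p = 0.0153). Against the step from D1 to D3 the difference was above 0 in 3 genes (0.0235%) and below 0 in 18 (0.141%). Ryr1 and Socs3 were among the 18, with differences of -3.25 (SE 0.4, adjusted p = 0.00965) and -2.26 (SE 0.36, adjusted p = 0.0299): they fell from D3 to D5 after fitted changes of 1.19 and 0.86 from D1 to D3. Slc16a3 was one of the 3. It was at 59.2 and 74.8 CPM at D0, 21 and 22.8 CPM at D1, 12.3 and 5.96 CPM at D3, 99.8 and 78.1 CPM at D5 and 253 and 180 CPM at D7, with a difference between the steps of 4.35 (SE 0.62, adjusted p = 0.018). Called on their own, the step from D1 to D3 had 0.831% of genes higher and 0.784% lower, and the step from D5 to D7 had 0.125% higher and 0.0314% lower. The steps share libraries, so these counts are not independent of each other. Without D3 replicate 1 or D3 replicate 2, 2 and 1 genes had a difference above 0 against the step from D5 to D7, and none differed from the step from D1 to D3 in either direction.

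**Figure D5:**
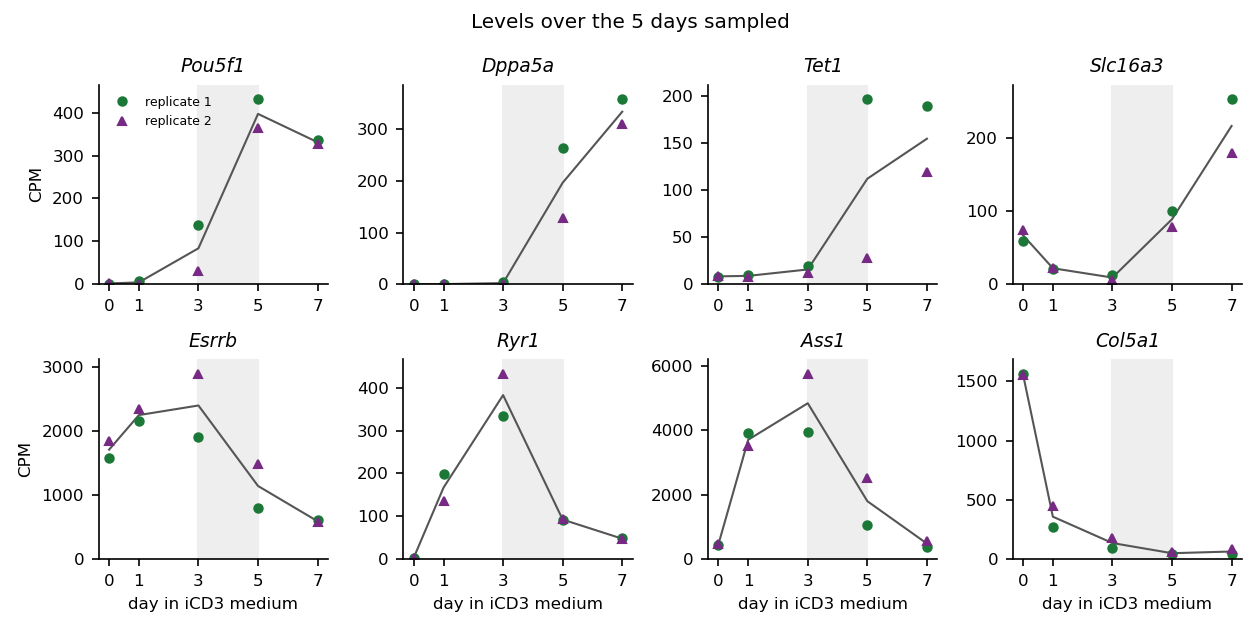
CPM by day of induction for 8 genes, with a point for each replicate, a line through the means of the 2 libraries and the D3-to-D5 window shaded. Pou5f1, Dppa5a, Tet1 and Slc16a3 are higher at D5 than at D3, while Esrrb, Ryr1, Ass1 and Col5a1 are lower, Ryr1 and Ass1 after an increase between D0 and D1.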

How the data were processed

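RNA-seq libraries were made with mRNA kits from TRIzol total RNA, per the labels' protocols, which name 2 library kits and 2 sequencing kits without saying which library had which. Per the submitters' processing notes the authors used bcl2fastq, Bowtie2 and RSEM with mm10. Their versions, the annotation release and the strand setting were not given in the sources used here. Deposited gene tables hold, per the file headers, RSEM expected counts and TPM for 54752 genes; the expected counts were rounded to whole numbers for testing, and TPM were used only to order genes by level. The authors' FPKM values were not used. Gene names and coordinates came from GENCODE annotation on GRCm38 (54723 matched).

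The main test was edgeR 4.0.16 (R 4.3.3): TMM scaling, filterByExpr with a minimum count of 10, a quasi-likelihood fit of all 10 libraries with day and replicate number as terms (4 residual degrees of freedom), Benjamini-Hochberg adjustment over 12752 genes and a threshold of 0.05. Alternatives were DESeq2 1.42.0, limma-voom (limma 3.58.1), RLE and upper-quartile scaling, no filter or a minimum count of 30, thinning to the smallest library, the 4 libraries alone, no block, and leaving out each library. The 2 replicates of a day differed beyond counting noise (chi-square divided by the number of genes 7.75 to 23), and all 10 libraries were kept as separate samples. That value was highest at D5, at 23, against 13.1 at D3 and 7.75, 11.2 and 9.37 at D0, D1 and D7. Each gene's spread was estimated over all 10 libraries, so the spread used for D5 came in part from the other days.

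The replicate numbers were used as pairs because the series text speaks of 2 independent experiments. The deviations of same-numbered libraries from their day means correlated in all 10 pairs of days (r = 0.273 to 0.436 across genes, 0.273 for D3 and D5).

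Named genes were the 12 risers and 12 fallers with the largest fitted change, a panel, up to 4 called members of each list (or, with none called, the 2 most abundant) and up to 6 genes each way in a difference of steps, leaving out predicted genes; members named beyond these, Ass1, Flnc, Alpl and the genes that kept their calls among them, were chosen after their values were seen. The compared days, the gene lists and the panel were chosen with earlier results of these data known, and a gene may stand in several lists.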

Additional observations from a re-analysis of the deposited data

Results flagged for a closer look

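The change from D3 to D5 was tested against the neighbouring steps, and the genes for which the steps differed are given here as values, each the signed log2 change from D3 to D5 less that of the other step. Against the step from D5 to D7 the difference was above 0 in 7 genes and below 0 in 0 (336 at an unadjusted p under 0.05, 6 by DESeq2 and none by limma-voom). The 7 included Dppa5a (difference of log2 changes 5.29, SE 0.69, adjusted p = 0.0153), Rbmxl2 (5.44, SE 0.7, adjusted p = 0.0153), Mylpf (5.43, SE 0.7, adjusted p = 0.0153) and Zfp42 (3.6, SE 0.56, adjusted p = 0.0486), all of which rose to D5 and were not called between D5 and D7. Against the step from D1 to D3 it was above 0 in 3 genes, among them Slc16a3 (4.35, SE 0.62, adjusted p = 0.018), and below 0 in 18.

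Among those 18 were Selenop, a selenium transport protein (difference -4.4, SE 0.52, adjusted p = 0.00965), Trpm1, a cation channel (-4.76, SE 0.52, adjusted p = 0.00945), the crystallin Crybb1 (-5.48, SE 0.75, adjusted p = 0.0163), the neuronal protein Nrgn (-5.39, SE 0.9, adjusted p = 0.0493) and the hormone precursor Trh (-4.33, SE 0.74, adjusted p = 0.0436). Selenop was at 180 and 75.4 CPM at D1, at 2050 and 1820 CPM at D3 and at 1200 and 1580 CPM at D5. Trh was at 6.69 and 0.711 CPM at D1, at 223 and 83.5 CPM at D3 and at 216 and 256 CPM at D5. Both were called higher at D3 than at D1 and were not called between D3 and D5. Pakap had a difference of -14.37 (SE 1.93, adjusted p = 0.0221), a fitted value that is no bound because the gene had no count on some days: it was at 0 at D1, 7.02 and 8.94 CPM at D3 and 0 at D5.

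The pseudogene Rpl30-ps9 had a difference above 0 in both tests, of 13.85 (SE 1.27, adjusted p = 0.00274) against the step from D5 to D7 and of 11.19 (SE 1.33, adjusted p = 0.00965) against the step from D1 to D3. Its replicate 2 libraries held 57.6, 94.6, 1.49, 69.6 and 0 CPM from D0 to D7, and its replicate 1 libraries at most 0.242 CPM, so these values come from replicate 2 alone. DESeq2 (adjusted p = 0.729) and limma-voom (0.0774) did not call it between D3 and D5.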

How the results depend on the processing

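With 2 libraries a day, the number of calls depended on the pairing and on single libraries. The fit with the replicate block called 288 genes higher and 133 lower. Without the replicate block the counts were 8 and 1, and both differences of steps gave 0 calls each way (with it 7 and 0 against D5 to D7, 3 and 18 against D1 to D3). With the 4 libraries alone they were 136 and 17. DESeq2 called 277 and 210, with 13 and 6 for the difference from D5 to D7 and 26 and 61 for that from D1 to D3. limma-voom called 500 and 292, with 11 higher for the former and 31 lower for the latter. Without a filter on low counts they were 605 and 449, then 111 and 36, then 84 and 179. Leaving out 1 library gave 28 to 920 higher and 4 to 703 lower, 1 to 87 and 0 to 172 for the difference from D5 to D7, and 0 to 216 and 0 to 347 for that from D1 to D3. The highest counts came without a D5 library; the cause was not tested. RLE and upper-quartile scaling, a minimum count of 30 and thinning stayed within 1.5 times the counts of D5 against D3.

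Of the named called values, 99 lost their call without the block, 87 and 94 without D3 replicates 1 and 2, 55 without D5 replicate 1, 5 without D5 replicate 2, 37 with the 4 libraries alone and 22 each with DESeq2 and with thinning; none turned direction. Fitted changes that turned sign belonged to uncalled genes. Over the fits without 1 library they ran from -0.46 to 0.14 for Fn1, -0.48 to 0.2 for Vim, -0.53 to 0.26 for Col1a1, -0.67 to 0.31 for Bambi, -1.02 to 2.37 for Zscan4f, -0.28 to 0.03 for Hmgcs1, -1.57 to 0.1 for Igfbp7, -0.15 to 0.91 for Bst2, -0.02 to 0.29 for Ddx58, -1.87 to 0.76 for Hba-a2, -3.23 to 0.68 for Krt15, -2.3 to 0.38 for Lor, -0.12 to 0.26 for Cdh1, -0.9 to 0.47 for Acta2 and -1.06 to 0.34 for Crybb1. Hba-a2 and Acta2 were at 0.07 and 0.04 without the block, and Cdh1 at -0.02 with thinned counts. Depth limits genes with few counts: a count of 3 was worth 0.692 to 2.26 CPM before TMM scaling.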

Other observations

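Several gene groups outside the lists were noted after their values were seen and are given as values without a test of the group. A window of chromosome 4 (GRCm38, 145446740 to 147702553, 2.26 Mb) holds 85 genes of the tables, of which 23 were tested. Its bounds were drawn at the outermost zinc-finger or predicted genes that rose there, so its share of risers is raised by that choice. By edgeR's test 13 of the 23 (56.5%) rose, against 3.27% of tested genes on all of chromosome 4 and 2.26% of all tested genes. Within the window 0 were called lower and 21 were fitted above 0. The risers were the zinc-finger genes Zfp600, Zfp978, Zfp980, Zfp981, Zfp982, Zfp985, Zfp987, Zfp988, Zfp990, Zfp534 and Rex2 with the predicted genes Gm13212 and Gm13230. The tested genes had a median change of 2.87, and the summed level of the window was 244 and 138 CPM at D3 and 1070 and 321 CPM at D5. Many of these genes have close copies in the same window, so reads can be assigned to the wrong member and the number of risers is uncertain. Rex2 went from 6.44 and 0 CPM to 78.7 and 17.8 CPM, higher within each replicate.

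Some DNA repair genes were also among the risers. They were picked from the risers, and how many tested repair genes did not rise was not counted. None of the genes in this paragraph was among the 15 risers that kept their calls without each library. Risers of the Fanconi anaemia pathway, which removes DNA crosslinks, were Fanca (9.36 and 5.22 CPM, then 39.6 and 24.7 CPM), Fanci (12 and 8.2 CPM, then 38.6 and 19.3 CPM) and Fancd2 (16.7 and 11.9 CPM, then 46.9 and 26.3 CPM). The mismatch repair gene Msh6 (105 and 65.6 CPM, then 313 and 132 CPM), the exonuclease Exo1, the checkpoint kinase Chek2 and the endonuclease subunit Eme1 rose as well. In amino-acid and one-carbon metabolism, Asns, asparagine synthetase, rose from 57.4 and 29.8 CPM to 207 and 150 CPM (2.01, SE 0.28, edgeR adjusted p = 0.00409), Slc7a3, an arginine transporter, from 12.3 and 6.71 CPM to 73.4 and 46.4 CPM, and Bcat1, a branched-chain aminotransferase, from 71.1 and 37.3 CPM to 241 and 165 CPM. Shmt2, Aldh1l2 and Aldh18a1, mitochondrial enzymes, rose by 0.97, 2.57 and 1.11 on the log2 scale. These metabolic genes were likewise picked from the risers. The amino-acid enzymes Ass1 and Aldh4a1 and the amino-acid transporters Slc43a2 and Slc36a1 were called lower.

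A few signalling genes are given singly. The Notch ligands Dll1 and Dll3 rose, while another Notch ligand, Jag1, fell from 48.3 and 70 CPM to 24.6 and 16.2 CPM and the Notch target Hey1 from 95.1 and 171 CPM to 28.3 and 85.1 CPM. The retinoic acid receptor gene Rarg rose from 10.2 and 8.2 CPM to 37.2 and 30.9 CPM, while Cyp26b1, which degrades retinoic acid, fell from 26.9 and 70 CPM to 10.9 and 20.9 CPM. The transcription factor Arid3b, called also without the block, rose from 3.22 and 5.22 CPM to 65.7 and 31.7 CPM. The predicted genes Gm38312 and Gm47164 reached 852 and 293 CPM and 612 and 124 CPM at D5, from 90.4 and 20.1 CPM and 54.4 and 38.7 CPM at D3.

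Genes of the 2-cell stage, near 0 at D3 and D5, had counts at D7: Zscan4c, Zscan4e, Zscan4f and Gm4340 averaged 12.3, 11.2, 21.8 and 16.8 CPM there, and the list summed to 115 and 80.8 CPM. The germline list also stood higher at D7, at 450 and 271 CPM, than at D5, at 169 and 61.9 CPM.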
